A study of Mus musculus with 6 samples.

Results

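The 10 genes described here carry the signal that tells a pancreatic acinar cell to secrete, and the calcium store that answers it. They are the receptor genes Cckar, Chrm1, Chrm3 and Sctr, the calcium release channel genes Itpr1, Itpr2 and Itpr3, the store sensor gene Stim1, the entry channel gene Orai1 and the store pump gene Atp2a2. They were taken by gene symbol and make up 10 of the 23282 rows of the count tables, each on 1 row. Counts came from primary acinar cells of C57BL/6J mouse pancreas. The control group held 3 libraries of wild-type genotype. The conditional knock-out (cKO) group held 3 libraries of genotype ERRgamma -/-, lacking the nuclear receptor estrogen-related receptor gamma. All 6 samples were cultures in Waymouth's medium with serum, trypsin inhibitor and epidermal growth factor. The sources used here do not give the Cre line, the deleted part of the gene, the hours in culture, or the animals' age and sex. Whether the 3 libraries of a group came from separate animals is not stated either, so p-values reflect library-to-library spread that may be technical.

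As background, cholecystokinin acts on CCKAR, and acetylcholine on the muscarinic receptors CHRM3 and CHRM1. These receptors couple through Gq to phospholipase C, which makes inositol trisphosphate (IP3). IP3 opens the ITPR channels of the endoplasmic reticulum, and the calcium that leaves the store drives the fusion of zymogen granules with the apical membrane. The emptied store is sensed by STIM1, which opens ORAI1 in the plasma membrane, and SERCA2, the product of Atp2a2, pumps calcium back into the store. Secretin acts on SCTR through Gs and cyclic AMP, and is best known for its action on duct cells.

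The libraries held 15170173 to 25183465 counts, and the groups differed in what filled them. Counts of the 12 acinar markers were 25.3 to 26.9% of each control library and 8.03%, 22.5% and 11.4% of cKO replicates 1, 2 and 3. Levels are therefore given as CPM, counts per M (mega) of the TMM-scaled library size, a scale on which most genes are taken not to differ. The scaled size was 7.96 ± 0.489 M for control libraries and 50.8 ± 15.3 M for cKO libraries (mean and SD, n = 3 each). The same raw count thus stands for a lower CPM in cKO. The scaled size did not follow the share of the 12 markers alone. It was 8.49 M for control replicate 2, with a share of 25.3%, and 33.2 M for cKO replicate 2, with 22.5%. All 12 acinar markers fell in cKO, with a median log2 fold change of -3.88. Among 8 stellate cell and fibroblast markers 7 rose, and their summed level was 726 to 819 CPM in control and 3571 to 5093 CPM in cKO. All 8 macrophage and leukocyte markers rose, with sums of 54.4 to 75.4 CPM in control and 480.7, 200.2 and 382 CPM in cKO replicates 1, 2 and 3. Smooth muscle and pericyte markers rose in 3 of 5 tested genes, lymphocyte markers in 1 of 5, and duct markers in 3 of 6 with 2 that fell. Endothelial markers rose in 1 and fell in 1 of 6, islet markers fell in 1 of 6, and neural markers passed in 0 of 2. These counts are to be read beside all tested genes, of which 24% passed as higher and 20.7% as lower in cKO. Of the defining markers, Sox10 alone had 0 counts in every control library, and none had 0 counts in all 6 libraries. The part of these other cells in the results below was not tested. The ratio to acinar markers given below cannot test it, since less marker RNA per acinar cell would move the ratio too.

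Of the 10 genes, 9 passed the filter on low counts, and 5 of these passed edgeR's quasi-likelihood test at an adjusted p of 0.05. Orai1 and Itpr1 rose, and Cckar, Chrm3 and Atp2a2 fell. Among all 13132 tested genes, 44.7% passed, 24% higher and 20.7% lower in cKO. The counts of 2 and 3 among 9 are thus close to the background of the experiment. The median log2 fold change of the 9 genes was -0.27, beside 0.10 for all tested genes. The groups did not overlap for 5 of the 10 genes, against 56.2% of all tested genes. These were the same 5 genes that passed the test.

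**Figure D1:**
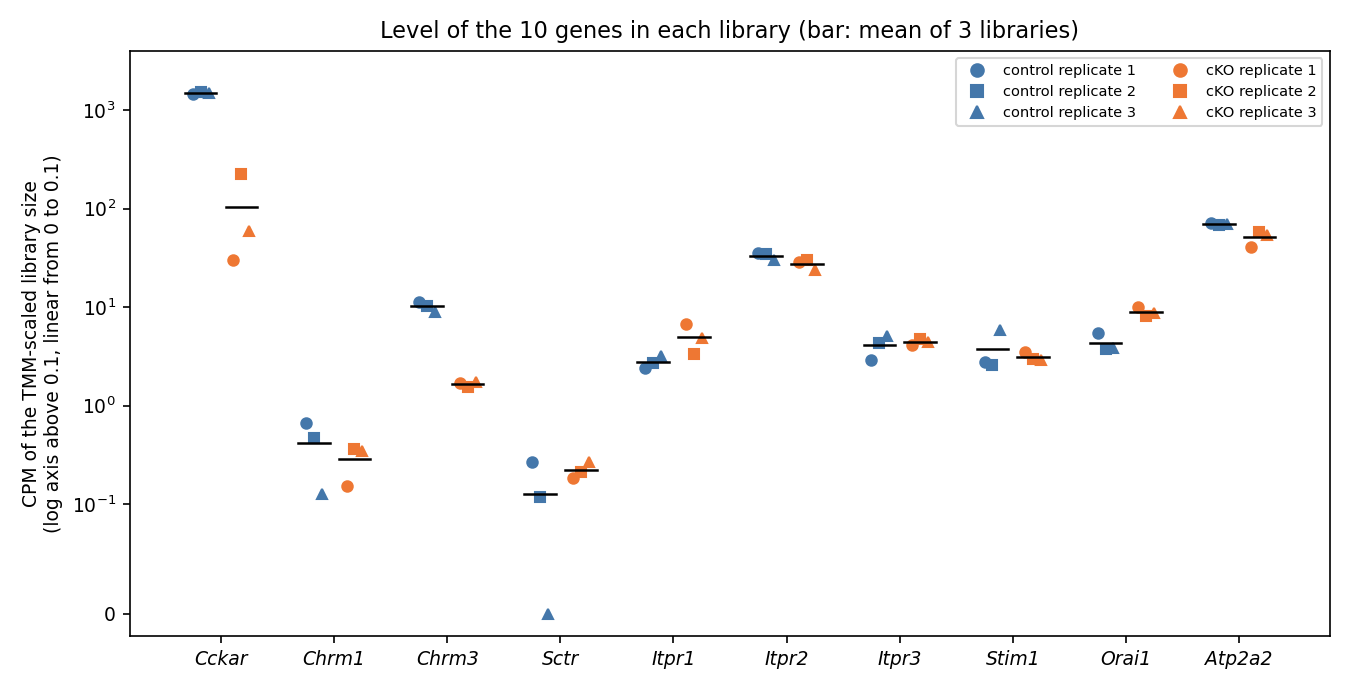
Each point is the level of a gene in 1 library, in CPM of the TMM-scaled library size, on an axis that is logarithmic above 0.1 CPM and linear below. Horizontal bars are the means of 3 libraries. Cckar stands near 1492 CPM in control and spreads from 29.9 to 224 CPM in cKO, and the 3 cKO points of Chrm3 lie close together below the controls.

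Cckar, the receptor gene for cholecystokinin (GRCm38 chromosome 5, 53697776 to 53707705, minus strand), was by far the most abundant of the 10. It was counted 11056, 12974 and 11623 times in control replicates 1, 2 and 3, and 1775, 7443 and 3518 times in cKO replicates 1, 2 and 3. On the TMM scale these are 1469.8, 1528.5 and 1476 CPM in control and 29.9, 224 and 58.7 CPM in cKO. Every cKO library lay below every control library, and cKO replicate 2 lay nearest to the controls. Cckar held rank 45 among all rows by mean control level and rank 257 by mean cKO level. A 3' tag library gives about 1 tag per transcript, so levels of different genes can be ranked without a correction for length. Cckar fell by 3.84 ± 0.79 on the log2 scale (SE; edgeR adjusted p = 0.00912), from 1492 ± 32.2 to 104 ± 105 CPM (SD, n = 3 each). Without cKO replicate 2 it was -5.06. The control libraries agreed within a factor of 1.04 between highest and lowest, and the cKO libraries differed by a factor of 7.51. In bulk libraries, fewer acinar cells and less Cckar RNA per acinar cell cannot be told apart.

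Chrm3, the main muscarinic receptor gene of acinar cells (chromosome 13, 9875486 to 10360847, minus strand), showed another pattern. Its counts were 85, 87 and 71 in control and 100, 51 and 105 in cKO. These raw counts overlap, and the fall appears once the larger scaled sizes of the cKO libraries are taken into account. Levels were 11.3, 10.2 and 9.02 CPM in control and 1.68, 1.54 and 1.75 CPM in cKO. All cKO libraries stood at a like low level, with a factor of 1.14 between highest and lowest, and cKO replicate 2 did not stand apart. Chrm3 fell by 2.61 ± 0.25 on the log2 scale (SE; edgeR adjusted p = 2.10e-06), from 10.2 ± 1.14 to 1.66 ± 0.109 CPM (SD, n = 3 each). The fold change ran from -2.69 to -2.53 when each library was left out in turn, and the call held each time. Chrm3 went from rank 3671 in control to rank 9946 in cKO.

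The balance of these Gq-coupled receptor genes can be read within a library, where no scaling enters. There were 130, 149 and 164 Cckar counts for each Chrm3 count in control replicates 1, 2 and 3. In cKO replicates 1, 2 and 3 there were 17.8, 146 and 33.5. cKO replicate 2 lay within the control range, and cKO replicates 1 and 3 lay far below it. The share of Cckar in the summed counts of both genes was 99.3% ± 0.0787 in control and 97.0% ± 2.33 in cKO (SD, n = 3 each; exact 2-sided permutation p = 0.2), and the groups overlapped.

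Chrm1, a related muscarinic receptor gene (chromosome 19, 8663789 to 8683587), was close to the limit of detection. It was counted 5, 4 and 1 times in control and 9, 12 and 21 times in cKO. Levels were 0.665, 0.471 and 0.127 CPM in control and 0.152, 0.362 and 0.350 CPM in cKO, so the groups overlapped. The test gave -0.56 ± 0.79 on the log2 scale (SE; edgeR adjusted p = 0.599). Chrm3 made up 96.2% ± 2.15 of the summed Chrm1 and Chrm3 counts in control and 85.3% ± 5.67 in cKO (SD, n = 3 each). Every cKO share lay below every control share, with exact 2-sided permutation p = 0.1, the smallest that 3 against 3 libraries can give, and 0.2 after adjustment over the 8 shares tested.

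Sctr, the secretin receptor gene (chromosome 1, 120006894 to 120063536), did not pass the filter on low counts. It was counted 2, 1 and 0 times in control and 11, 7 and 16 times in cKO. All control counts were below the 3 counts that a count of 0 allows, which correspond to 0.353 to 0.399 CPM, and the highest cKO level of 0.267 CPM was below that too. Pooled over libraries, the level in cKO was 1.78 times that in control, with an exact 95% interval for counting error from 0.558 to 9.03. On the TMM scale a difference in Sctr was thus not detectable at this depth. As a share of the library total Sctr had 0.0818, 0.0397 and 0 CPM in control and 0.725, 0.413 and 0.978 CPM in cKO, where the groups did not overlap. By this measure 96.9% of all tested genes were higher in every cKO library.

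Set against acinar markers, the groups overlapped for Cckar and Chrm3, and the other 8 genes were higher in every cKO library. Of all tested genes 98.3% were higher in every cKO library by this ratio, so the count of 8 is no more than the background. Per 1000 counts of the 12 acinar markers in the same library, Cckar had 1.68, 2.03 and 1.94 counts in control replicates 1, 2 and 3 and 1.46, 1.95 and 1.89 counts in cKO replicates 1, 2 and 3. The groups overlapped, with a ratio of means of 0.936 (exact 2-sided permutation p = 0.6, also 0.6 adjusted over the 10 genes). Chrm3 had 0.0129, 0.0136 and 0.0118 counts per 1000 in control and 0.0821, 0.0134 and 0.0563 in cKO. Here cKO replicate 2 lay within the control range and cKO replicates 1 and 3 above it (p = 0.2 by the same exact test). For the other 8 genes every cKO library lay above every control library, with an exact permutation p of 0.1 each, the smallest this design allows (0.125 adjusted), and ratios of means from 14.01 for Chrm1 to 51.9 for Orai1. This ratio was chosen after the data were seen.

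**Figure D2:**
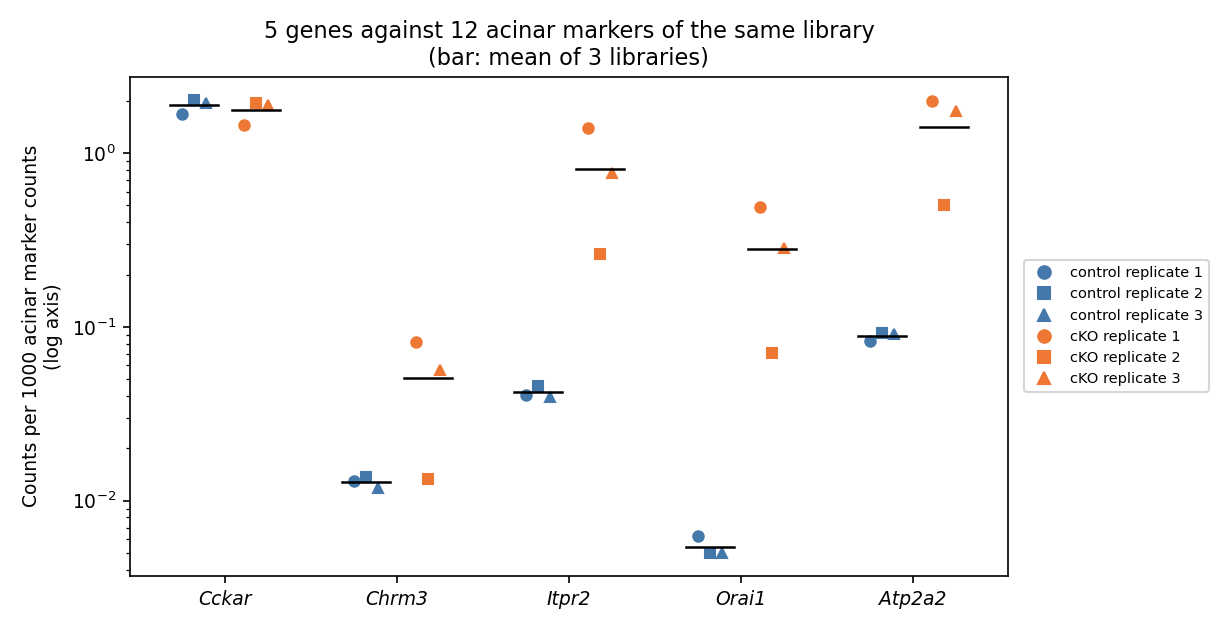
Points give the counts of 5 genes per 1000 counts of 12 acinar markers in the same library, on a log axis, and bars are means of 3 libraries. The Cckar points of both groups lie between 1.46 and 2.03, whereas Itpr2, Orai1 and Atp2a2 lie higher in every cKO library.

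The genes whose profiles were most like that of Cckar were found over the 6 libraries. Likeness was the Euclidean distance between log2 CPM profiles, each centred on its own mean, among 4307 named genes with a mean log2 CPM of at least 3. The nearest were the elastase gene Cela2a (distance 0.227), the lipase gene Cel (0.342), Casp9 (0.385), the acinar transcription factor gene Rbpjl (0.401) and the carboxypeptidase gene Cpa1 (0.421). Casp9 encodes a caspase, and its annotated gene overlaps Cela2a by 1015 bases on the opposite strand (chromosome 4). The strand setting of the counting is not given in the sources used here, so reads of Casp9 and Cela2a cannot be told apart. Nearest to Chrm3 were Smpdl3a (0.498), Lifr (0.523), Tmem8 (0.526), Spns2 (0.539) and Entpd7 (0.544).

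Among the IP3 receptor genes, which encode the release channels of the store, Itpr2 was the most abundant (chromosome 6, 146108299 to 146502223, minus strand). It stood at 35.4, 34.5 and 30.0 CPM in control and 28.7, 30.4 and 23.9 CPM in cKO. The groups overlapped by cKO replicate 2 and control replicate 3, and the log2 fold change of -0.27 ± 0.16 did not pass (SE; edgeR adjusted p = 0.186). Itpr3 (chromosome 17, 27057304 to 27122223) stood at 2.92, 4.36 and 5.08 CPM in control and 4.14, 4.77 and 4.39 CPM in cKO. The cKO levels lay inside the control range (0.10 ± 0.29, log2 and SE; edgeR adjusted p = 0.806). A miss of the threshold does not show that these levels were alike.

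Itpr1 (chromosome 6, 108213096 to 108551109) is the IP3 receptor gene best known from neurons and smooth muscle. It was counted 18, 23 and 25 times in control and 399, 111 and 290 times in cKO, which gives 2.39, 2.71 and 3.18 CPM in control and 6.72, 3.35 and 4.84 CPM in cKO. The groups did not overlap, though cKO replicate 2 lay just above control replicate 3. It rose by 0.85 ± 0.33 on the log2 scale (SE; edgeR adjusted p = 0.0497), from 2.76 ± 0.394 to 4.97 ± 1.69 CPM (SD, n = 3 each). This call lies at the threshold. It was lost without any 1 control library, cKO replicate 1 or cKO replicate 3 (adjusted p = 0.0700 to 0.264) and held without cKO replicate 2 (1.08; 0.0110). Itpr1 was highest in cKO replicate 1 and lowest in cKO replicate 2. The summed macrophage and leukocyte markers given above and those of stellate cells and fibroblasts had this order too. The sums of no other marker list had it. In cKO replicates 1, 2 and 3 smooth muscle and pericyte sums were 22.4, 22.9 and 23.4 CPM, and neural sums 2.48, 3.35 and 2.99 CPM. The part of any of these cells in the result was not tested.

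As shares of the 3 genes, which no scaling between libraries can move, Itpr1 took 5.88%, 6.52% and 8.31% of IP3 receptor counts in control replicates 1, 2 and 3. Their exact Clopper-Pearson 95% intervals ran from 3.52% to 12.02%, on 301 to 353 counts. In cKO replicates 1, 2 and 3 it took 17.0% (15.5 to 18.6), 8.70% (7.21 to 10.4) and 14.6% (13.1 to 16.3). Every cKO share was above every control share, but the interval of cKO replicate 2 overlapped those of the controls. Mean shares were 6.90% ± 1.26 and 13.4% ± 4.28, a difference of 6.54 percentage points (SD, n = 3 each; exact 2-sided permutation p = 0.1, the smallest possible, and 0.2 adjusted over 8 shares). Itpr2 remained the largest, with 82.8% ± 4.27 in control and 74.5% ± 3.82 in cKO (SD, n = 3 each; exact permutation p = 0.2), and Itpr3 took 10.3% ± 3.05 and 12.04% ± 1.42 (exact permutation p = 0.7).

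Stim1, the sensor of an emptied store (chromosome 7, 102267806 to 102437319), did not pass the test. It stood at 2.79, 2.59 and 5.84 CPM in control and 3.54, 2.99 and 2.89 CPM in cKO. Control replicate 3 stood far above the other controls, and the cKO libraries lay within the control range. Its difference was -0.25 ± 0.35 on the log2 scale (SE; edgeR adjusted p = 0.594), and 0.23 without control replicate 3. Its paralog Stim2, a sensor that answers to smaller losses of store calcium, was more abundant, at 14.9 ± 2.21 CPM in control and 10.2 ± 0.972 CPM in cKO (SD, n = 3 each). Stim2 fell by 0.55 ± 0.19 on the log2 scale (SE; edgeR adjusted p = 0.0298), a call that was lost on leaving out any 1 library other than control replicate 2 (0.0504 to 0.102). Stim1 took 19.6% ± 6.38 of the counts of both sensors in control and 23.7% ± 3.49 in cKO (SD, n = 3 each; exact permutation p = 0.4).

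Orai1, the pore of store-operated calcium entry (chromosome 5, 123015074 to 123030456, plus strand), rose. It was counted 41, 32 and 30 times in control and 596, 271 and 529 times in cKO. Levels were 5.45, 3.77 and 3.81 CPM in control and 10.04, 8.17 and 8.82 CPM in cKO. All 3 cKO libraries lay above all controls. The rise was 1.06 ± 0.25 on the log2 scale (SE; edgeR adjusted p = 0.00276), from 4.34 ± 0.959 to 9.01 ± 0.947 CPM (SD, n = 3 each). It ran from 0.97 to 1.25 over the left-out libraries, and the call held each time. Its rank by mean level went from 6459 in control to 4126 in cKO. The genes nearest to Orai1 in profile were Sept8 (distance 0.140), Taok3 (0.229), Ifitm2 (0.249), Plxnb2 (0.258) and Ptpra (0.306).

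The make-up of the Orai family changed with it. Orai1 took 30.1% (95% interval 22.6 to 38.6), 23.5% (16.7 to 31.6) and 24.8% (17.4 to 33.5) of Orai counts in control replicates 1, 2 and 3. It took 45.6% (42.9 to 48.3), 44.3% (40.3 to 48.3) and 44.7% (41.8 to 47.6) in cKO replicates 1, 2 and 3. The intervals of the groups did not overlap, and the 3 cKO libraries agreed closely. The mean share went from 26.2% ± 3.51 to 44.9% ± 0.677, a difference of 18.7 percentage points (SD, n = 3 each; exact 2-sided permutation p = 0.1, the smallest possible, and 0.2 adjusted over 8 shares). Over the left-out libraries this difference stayed between 17.4 and 20.7 points. Orai2 went the other way, from 47.1% ± 1.32 to 18.5% ± 7.44 of Orai counts, and from 7.77 ± 0.754 to 3.62 ± 1.18 CPM (SD, n = 3 each). It fell by 1.11 ± 0.29 on the log2 scale (SE; edgeR adjusted p = 0.00565). Orai3 rose by 0.77 ± 0.27 (adjusted p = 0.0325), from 4.38 ± 0.506 to 7.45 ± 2.04 CPM (SD, n = 3 each), but lost its call with the replicate number as a block (0.0512), without control replicate 1 or 3 or without cKO replicate 1 or 3 (0.0768 to 0.186). Orai3 took 26.7% ± 4.44 of Orai counts in control and 36.7% ± 6.78 in cKO (SD, n = 3 each). In control the most counted Orai gene was Orai2, and in every cKO library it was Orai1. In cKO replicate 1 Orai3 was close behind Orai1, at 43.6% beside 45.6%.

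Atp2a2, which encodes the SERCA2 pump (chromosome 5, 122453513 to 122502225, minus strand), was the most abundant of the 10 after Cckar. It stood at 71.9, 68.9 and 69.2 CPM in control and 40.9, 57.7 and 54.5 CPM in cKO. Each cKO library lay below each control library, with cKO replicate 1 the lowest. Atp2a2 fell by 0.46 ± 0.16 on the log2 scale (SE; edgeR adjusted p = 0.0333), from 70.0 ± 1.65 to 51.0 ± 8.95 CPM (SD, n = 3 each). This small fall lost its call on leaving out any 1 library other than cKO replicate 2 (adjusted p = 0.0687 to 0.148) and with no filter on low counts (0.0519). Within the SERCA family Atp2a2 took 93.2% ± 1.26 of counts in control and 88.5% ± 2.55 in cKO, with no overlap (SD, n = 3 each; exact 2-sided permutation p = 0.1, the smallest possible, and 0.2 adjusted over 8 shares). Atp2a3, known from blood cells and some epithelia, took 4.22% ± 0.587 and 8.60% ± 1.63. Its level was 3.18 ± 0.452 CPM in control and 4.89 ± 0.849 CPM in cKO, and its log2 fold change of 0.62 ± 0.29 missed the threshold (SE; edgeR adjusted p = 0.102). Atp2a1, the pump of fast muscle, took at most 4.24% of the family in any library.

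**Figure D3:**
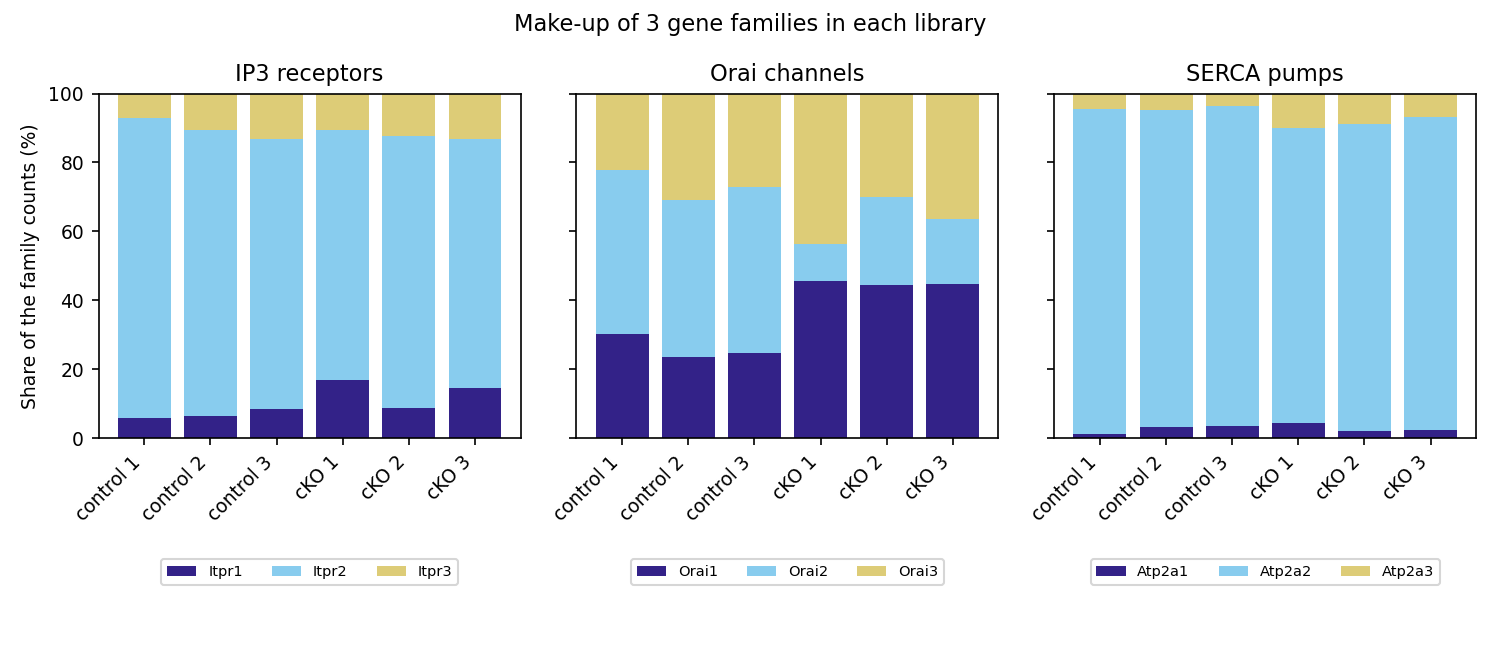
Stacked bars give the share of each gene in the summed raw counts of its family, in percent, for each of the 6 libraries. Orai1 takes 44.3 to 45.6% of Orai counts in the cKO libraries and 23.5 to 30.1% in control, while Itpr2 and Atp2a2 hold most of their families in all libraries.

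For 5 of the 9 tested genes, Chrm1, Chrm3, Itpr2, Stim1 and Atp2a2, the sign of the difference turned between the TMM scale and library totals. On library totals, the median log2 fold change of all tested genes was 3.36, and 96.4% of them passed as higher in cKO and 0.404% as lower. As plain shares of the library, the groups did not overlap for 96.9% of tested genes, higher in cKO, and for 0.518%, lower in cKO. Among the 10 genes these shares were higher in all cKO libraries for 8, overlapped for Chrm3 and were lower in all cKO libraries for Cckar. Cckar took 452, 515 and 505 CPM of the library total in control and 117, 439 and 215 in cKO. It was the lone member called lower on this scale, with a log2 fold change of -0.93 ± 0.37 (SE; edgeR adjusted p = 0.0113). Chrm3 had 3.48, 3.45 and 3.09 CPM of the total in control and 6.59, 3.01 and 6.42 in cKO (0.68 ± 0.53, log2 and SE; edgeR adjusted p = 0.203). The other 7 tested genes passed as higher, with log2 fold changes from 2.61 for Chrm1 to 4.36 for Orai1. Set against the median of all tested genes, the order of the members was the same on each scale for the genes that passed. Relative to that median, Cckar was at -4.30 on library totals and -3.94 on the TMM scale, Chrm3 at -2.69 and -2.71, Atp2a2 at -0.59 and -0.56, Itpr1 at 0.84 and 0.75, and Orai1 at 1.00 and 0.96. "Rose" and "fell" are meant throughout relative to the bulk of genes.

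**Figure D4:**
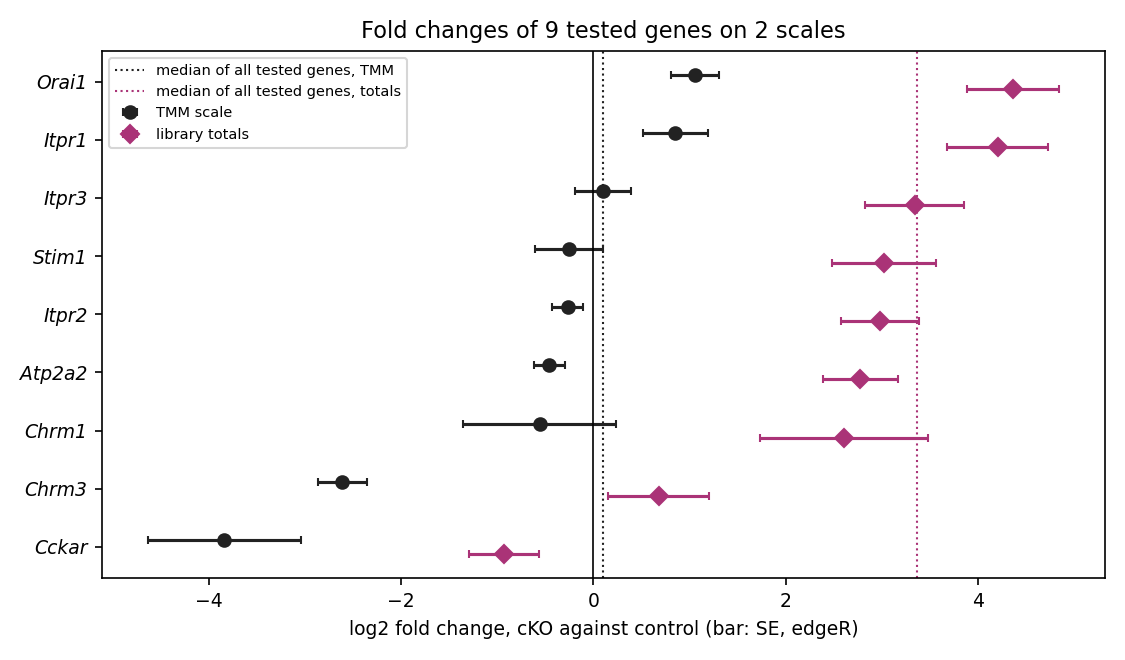
Points are edgeR log2 fold changes of the 9 tested genes, cKO against control, with SE bars, on the TMM scale and on library totals. Dotted lines mark the medians of all tested genes, 0.10 and 3.36. On either scale Cckar and Chrm3 lie far to the left of the median and Orai1 and Itpr1 to the right of it.

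Promoter windows from RefSeq (GRCm38.p6, 250 bases before to 50 after a start) were available here for 5 of the 10 genes, Chrm3, Itpr2, Itpr3, Stim1 and Orai1. The other members, Cckar among them, had no window in the sources used here and were not searched. Those of Chrm3 and Orai1 are shown because these genes moved in opposite directions and kept their calls over all left-out libraries. Both are printed 5′ to 3′ on the strand of the gene, Chrm3 from chr13:10360754-10361053 (minus strand) and Orai1 from chr5:123014824-123015123 (plus strand), with capitals for the E-box letters CANNTG.
Chrm3: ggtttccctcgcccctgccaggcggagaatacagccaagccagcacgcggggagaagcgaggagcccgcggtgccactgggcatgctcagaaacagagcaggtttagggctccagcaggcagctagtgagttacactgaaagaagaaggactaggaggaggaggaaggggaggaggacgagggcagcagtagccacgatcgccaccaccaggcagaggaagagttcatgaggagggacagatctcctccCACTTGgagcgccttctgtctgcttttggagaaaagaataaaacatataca
Orai1: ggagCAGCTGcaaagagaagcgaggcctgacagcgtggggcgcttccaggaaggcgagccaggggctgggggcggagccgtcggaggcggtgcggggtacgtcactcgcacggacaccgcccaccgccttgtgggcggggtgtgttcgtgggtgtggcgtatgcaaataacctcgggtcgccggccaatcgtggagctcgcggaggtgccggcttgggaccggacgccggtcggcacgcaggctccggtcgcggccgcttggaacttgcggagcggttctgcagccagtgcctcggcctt
The E-box was found once in each of these 2 windows, beginning at base -1 in Chrm3 and at base -246 in Orai1, counted from the start. It was found in all 5 windows, and 72.3% of all 32851 windows hold it. The ERR element TNAAGGTCA, its shorter core AAGGTCA, which lies within it, and TTCCCA, part of the site of the acinar PTF1 complex, were searched on both strands. None of these had a match in the 5 windows, while 1.28%, 4.72% and 25.6% of all windows hold a match. The Chrm3 window had 57.3% G and C and 11 CG pairs, and the Orai1 window 70.3% and 36, where the median of all windows was 52.7% and 7.

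Around the 10 genes, 125 further genes of secretagogue and calcium signalling were listed by role. Of the 105 that were tested, 29 rose and 33 fell, with a median log2 fold change of -0.10, and 4 had a lower mean share of the library total in cKO. Counts here and below are to be read against all tested genes, of which 24% passed as higher and 20.7% as lower. No list was tested as a group. Genes beyond the 3 with the smallest p in a list were named after their values were seen.

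Of 8 tested receptors for other secretagogues and gut peptides, 5 fell (Grpr, Sstr2, Cckbr, F2rl1 and Vipr1) and 2 rose (Adcyap1r1 and Chrm4), with a median of -2.29. On library totals the median was 0.91, and 2 of the 8 had a lower mean share in cKO. F2rl1 was counted 3, 21 and 3 times in control and Chrm4 3, 2 and 10 times, so the sizes of these changes are uncertain. Grpr, the receptor gene for gastrin-releasing peptide, was counted 23, 36 and 27 times in control and 6, 5 and 6 times in cKO. It went from 3.58 ± 0.605 to 0.117 ± 0.0290 CPM (SD, n = 3 each), with a log2 fold change of -4.92 ± 0.56 (SE; edgeR adjusted p = 7.51e-06). Its counts were thus lower in cKO even before scaling. Sstr2, a somatostatin receptor gene (-3.21 ± 0.48), and Vipr1, a receptor gene for vasoactive intestinal peptide (-2.19 ± 0.37), also fell.

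Downstream of the receptors, each step held genes that moved either way. Among 11 tested Gq proteins and phospholipases C, 4 fell (Gna14, Plcb1, Plcb4 and Gna11) and 4 rose (Plce1, Plcb2, Gna15 and Plcd3), with a median of 0.37. The phospholipase gene Plcb1 went from 9.26 ± 1.29 to 2.47 ± 0.676 CPM and Gna11, a Gq family gene, from 32.02 ± 4.25 to 16.2 ± 3.21 CPM (SD, n = 3 each). Gna15, a Gq family gene of blood cells, rose by 3.32 ± 0.68, but with 0, 5 and 1 counts in control its size is uncertain. Plcb2 had 0, 4 and 2 counts in control, so the size of its rise is uncertain too. Plcd3 had 1 count in all controls, and no fold is given. Gnaq itself stood at 28.9 ± 2.44 and 22.5 ± 1.009 CPM (SD, n = 3 each; edgeR adjusted p = 0.0687).

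Of 15 tested genes of the Gs and cyclic AMP branch, through which secretin acts, 5 fell (Prkaca, Pde3b, Adcy6, Adcy9 and Gnas) and 4 rose (Prkar1a, Prkacb, Adcy7 and Adcy3), with a median of -0.17. Gnas, which encodes the Gs alpha subunit, went from 379 ± 17.5 to 197 ± 5.63 CPM (SD, n = 3 each; log2 fold change -0.95 ± 0.17, SE). Prkaca, a catalytic subunit gene of protein kinase A, fell by 1.30 ± 0.19, and the adenylyl cyclase gene Adcy3 rose by 3.19 ± 0.52 from 3, 6 and 1 counts in control.

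Of 14 tested store release channels and regulators, 4 fell (Bok, Ahcyl1 and Tmco1 among them) and 4 rose (Erlin2, Erlin1, Mrvi1 and Tpcn2), with a median of -0.26. Ahcyl1, whose product IRBIT binds IP3 receptors and holds them back, fell by 0.60 ± 0.17, and Bok, a BCL-2 family gene whose product binds them, by 1.04 ± 0.24. Tpcn2, a lysosomal calcium channel gene, rose by 1.999 ± 0.621. Ahcyl1 lost its call without control replicate 1 or cKO replicate 3 (adjusted p = 0.0650 and 0.0661), and Tpcn2 without control replicate 3 or cKO replicate 1 or 3 (0.0592 to 0.0813). Of the ryanodine receptor genes, Ryr1 was counted 0, 0 and 2 times in control and 23, 13 and 37 times in cKO and did not pass (edgeR adjusted p = 0.0820). Ryr2 and Ryr3, with at most 8 counts in a library, did not pass the filter on low counts.

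In store-operated entry, 4 of 9 tested genes fell (Saraf, Cracr2b, Orai2 and Stim2) and 2 rose (Orai3 and Tmem178), with a median of 0.24. Saraf, whose product shuts store-operated entry down, went from 127 ± 6.72 to 52.6 ± 11.2 CPM (SD, n = 3 each; log2 fold change -1.27 ± 0.18, SE). Cracr2b, which encodes a regulator of ORAI1, fell by 1.14 ± 0.30. Tmem178 had 0, 0 and 2 counts in control, so the size of its rise is uncertain.

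Among 8 tested pumps, exchangers and pump regulators, 3 rose (Atp2b1, Atp2b4 and Slc8a1) and 2 fell (Atp2c2 and Tmx1), with a median of 0.26. Slc8a1, the plasma membrane sodium-calcium exchanger gene, rose by 2.21 ± 0.31, from 2.35 ± 1.03 to 10.9 ± 2.07 CPM (SD, n = 3 each). Atp2b4, a plasma membrane calcium pump gene, rose by 1.30 ± 0.21. Tmx1, a thioredoxin-related protein of the endoplasmic reticulum that acts on SERCA2, fell by 1.30 ± 0.16.

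Calcium-binding proteins of the endoplasmic reticulum and the wider secretory pathway went either way. Of 10 genes, 3 were higher (Hsp90b1, Rcn1 and Rcn3) and 2 lower (Nucb2 and Sdf4), with a median of 0.13. Calr, the calreticulin gene and the main buffer of store calcium, stood at 214 ± 9.59 and 243 ± 19.9 CPM (SD, n = 3 each) and did not pass (0.19 ± 0.17, log2 and SE; edgeR adjusted p = 0.388). Rcn3 (2.32 ± 0.21) and Rcn1 (1.31 ± 0.19), which encode reticulocalbins, rose, and the nucleobindin gene Nucb2 fell by 2.07 ± 0.26.

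Of 21 listed calcium effectors and related kinases, 6 rose (Calm2, Camk2d, Prkcd, Nfatc4, Rcan1 and Prkcb) and 3 fell (Camk2b, Ppp3r1 and Calm3), with a median of 0.10. Rcan1, a target gene and inhibitor of calcineurin signalling, rose by 1.48 ± 0.22, from 6.62 ± 0.858 to 18.5 ± 3.64 CPM (SD, n = 3 each). Prkcb, a protein kinase C gene, rose by 1.73 ± 0.24 and Camk2d by 1.02 ± 0.25.

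Of 9 tested genes of calcium-activated fluid secretion, 4 fell (Aqp12, Kcnq1, Slc12a2 and Ano1) and 1 rose (Kcnn4), with a median of -0.03. Aqp12, a water channel gene of acinar cells, went from 315 ± 27.1 to 22.7 ± 19.9 CPM (SD, n = 3 each; log2 fold change -3.80 ± 0.71, SE). Kcnq1, a potassium channel gene, fell by 2.61 ± 0.26, and Slc12a2, the chloride loader NKCC1, by 1.31 ± 0.20. Kcnq1 was counted 159, 121 and 116 times in control libraries and 141, 122 and 132 times in cKO libraries, values that like those of Chrm3 were close before scaling.

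**Figure D5:**
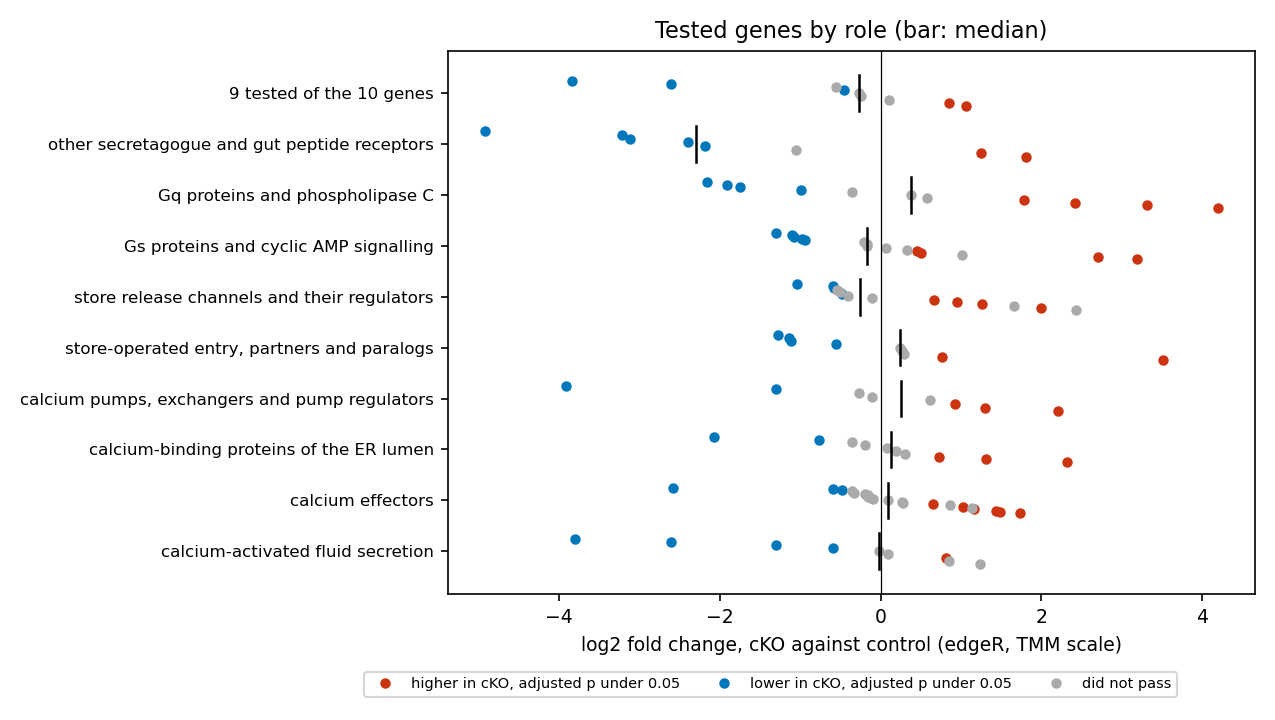
Each point is the edgeR log2 fold change of a tested gene on the TMM scale, cKO against control, in rows by role, and bars are medians. Red and blue points passed the test as higher or lower in cKO, and grey points did not. The receptor row has its median at -2.29, and the other rows have medians between -0.27 and 0.37.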

How the data were processed

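Total RNA went into 3' tag libraries (Lexogen QuantSeq), per the labels' protocols. The deposited tables, 1 for each library, hold whole-number read counts for gene symbols, which the authors left unnormalized. Bowtie2, edgeR, mm10 and GRCm38 stand in the submitters' processing notes, with no role. The sources used here do not state the counting tool or strand setting. Annotated opposite-strand genes overlap exons of Chrm1, Itpr1, Itpr3, Orai1 and Atp2a2 and have no rows in the tables, so without a known strand setting their reads cannot be told apart from the members'. No molecular identifiers are described, so intervals and floors cover counting error only.

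Genes were tested with edgeR 4.0.16 in R 4.3.3 (filterByExpr, TMM, robust glmQLFit and glmQLFTest, all 6 libraries), with Benjamini-Hochberg adjustment over 13132 genes. SE is the log2 fold change divided by the square root of F. The fit was tried on simulated data in which 100 genes were changed at each size, as many up as down. Among changed genes kept by the filter, it recovered 36.4% of changes of log2 size 1 and 87.1% of those of size 2. Of unchanged genes, 0.0741% were called. In the real data 44.7% of tested genes passed. So few and balanced changes cannot test the scaling between groups, and these rates may not hold for the real comparison. Shares within families used exact permutation tests. Replicate pairs of a group differed by more than sampling noise (chi-square per degree of freedom from 14.6 to 31.3 in control and 47 to 370 in cKO). Members, the 9 pathway lists and the 9 marker lists were chosen with earlier results of these data known. The text names all members, the 3 listed genes per list with the smallest p, their paralogs and the 5 nearest profiles. Coordinates are from GENCODE M21 (GRCm38). Alternatives were library totals, RLE, DESeq2 1.42.0, other filters, a replicate block and leaving out each library. A listed gene that is counted in its list is not reported here by name.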

Additional observations from a re-analysis of the deposited data

How the results depend on the processing

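With RLE factors or DESeq2, the members called were again 2 higher and 3 lower, and the 47 single-gene results tried kept their direction and side of the threshold. On library totals 7 members were called higher and 1 lower, and 95 and 2 of the other pathway genes. Against TMM, that scale reversed 23 single-gene values: Chrm1 (2.61), Chrm3 (0.68), Itpr2 (2.98), Stim1 (3.02), Atp2a2 (2.78), Vipr1 (1.08), Plcb1 (1.29), Gna11 (2.23), Prkaca (2.02), Gnas (2.33), Bok (2.16), Ahcyl1 (2.67), Saraf (1.95), Orai2 (2.08), Cracr2b (2.02), Tmx1 (1.94), Nucb2 (1.06), Kcnq1 (0.59), Slc12a2 (1.94), Stim2 (2.73), Atp2a1 (3.02), Pecam1 (2.63) and Ins2 (3.12). Per 1000 acinar marker counts, a ratio added after the data were seen, log2 ratios were reversed for Chrm1 (3.81), Chrm3 (1.98), Itpr2 (4.27), Stim1 (4.35) and Atp2a2 (4.002), and Cckar was at -0.09. With a filter of 10 CPM in 3 libraries, 0 members were called higher and 1 lower, Cckar, since the filter keeps few members, and 13 and 15 other pathway genes. Ins2 was then 0.16. Atp2a2 was tested there and lost its call (adjusted p = 0.177). With the replicate block 1 member, Orai1, was called higher (Itpr1, 0.0808), and other counts stayed within 1.5 times. Same-numbered libraries did not deviate together (correlations 0.0142, -0.0295 and -0.00774). The labels name no pairing, and so few libraries cannot exclude one. For the shares the block left the differences as they were (Orai1 18.7 points). Leaving out each library gave 1 to 2 members higher and 2 to 3 lower, and 19 to 33 and 27 to 35 other pathway genes. The counts of 19 came without control replicate 1 and without cKO replicate 3. Signs then turned for Itpr3 without control replicate 1 (range -0.0888 to 0.28), for Stim1 (-0.46 to 0.23) and Atp2a1 (-0.64 to 0.0170) without control replicate 3, and for Ins2 without control replicate 2 or cKO replicate 1 (-0.29 to 0.22), none called. Where no cause is named, the cause was not tested. Depth limits Chrm1 and Sctr, at no more than 21 counts in any library.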
